A study of Mus musculus with 9 samples.

Results

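Desmosomes are the spot junctions that tie the keratin filaments of neighbouring epithelial cells together, and the 9 genes described here encode their core: the desmogleins Dsg2 and Dsg3, the desmocollins Dsc2 and Dsc3, the armadillo proteins Jup, Pkp1, Pkp2 and Pkp3, and the plakin Dsp. They were chosen by name and are 9 of 23366 gene entries in the count tables. RNA-seq was performed on 6 libraries of mSGc, a spontaneously immortalized epithelial line from the submandibular glands of 12 week old male C57BL/6 mice, and on 3 libraries of IMOK, immortalized mouse oral keratinocytes labelled with the same strain, an early passage and IMOK media. The mSGc libraries are 1 each in SFM of passages P2, P4, P10 and P25, and 1 each in SCM of P10 and P25. SFM is a serum free medium with EGF, FGF, N2 supplement, insulin and dexamethasone. SCM is a medium with serum that also holds EGF and insulin, with retinoic acid, hydrocortisone, triiodothyronine, transferrin and selenite. The labels call the media progenitor and differentiating media, read here as SFM and SCM, since no P2 or P4 library is labelled with differentiating media. mSGc is 1 line followed over passages, and nothing states that the libraries come from separate cultures, so p-values measure only the spread between these libraries. Cell line, medium and experiment change together between mSGc and IMOK and cannot be told apart.

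In a desmosome, the cadherins (desmogleins and desmocollins) reach across the gap to the next cell. Inside the cell, plakoglobin (Jup) and the plakophilins (Pkp) bind the cadherin tails, and desmoplakin (Dsp) joins this plaque to keratin. Dsg2, Dsc2 and Pkp2 are the widespread forms, found in simple epithelia too, whereas Dsg3, Dsc3 and Pkp1 are best known from stratified epithelia such as skin and oral mucosa.

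The libraries held 6237884 to 18444963 counted reads, and the 9 genes took 0.330% to 0.583% of them in mSGc and 0.249% to 0.304% in IMOK. Epithelial markers (Epcam, Cdh1, Krt5, Krt14, Trp63) were each above 1 TPM in all 9 libraries, with sums of 9134 to 19411 TPM in mSGc and 8757 to 9516 in IMOK, while the 3 endothelial and 3 leukocyte markers stayed below 1 TPM throughout. The 6 mesenchymal markers summed to 0.320 to 22.2 TPM in mSGc and 0.987 to 6.71 in IMOK. The study reported more Amy1, Aqp5 and Mist1 mRNA in mSGc spheroids than in monolayers, and no library here is labelled as spheroids. In these libraries the 4 acinar (secretory) genes summed to 3.02 to 21.4 TPM in mSGc and 179 to 213 in IMOK. The IMOK replicates differed in which genes made up that sum. Replicate 1 had nearly all of it as Aqp5, at 213 TPM. Replicates 2 and 3 had Aqp5 at 111 and 72.9, Smr3a at 71.7 and 81.3, and Amy1 at 22.1 and 24.9 TPM. IMOK replicate 1 stood apart from the other two, with a chi-square of 150 and 180 per degree of freedom against replicates 2 and 3, which differed from each other by 21.3. The 3 myoepithelial markers, nearly all Acta2, summed to 881 TPM there against 7.13 and 14.0, and to 569 TPM in P2 mSGc against 5.08 to 108 in the other mSGc libraries. Fewer cells of a type and less RNA per cell cannot be told apart in such bulk libraries.

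All 9 genes were expressed in every library. Levels between genes are compared here in TPM (a level scaled to the library and divided by gene length). Desmoplakin and Pkp1 were first and second in every library: Dsp had a mean of 418 ± 111 TPM in mSGc (SD, n = 6) and 253 ± 22.6 in IMOK (SD, n = 3), and Pkp1 352 ± 96.8 and 224 ± 77.1. These means differ by less than the spread among the mSGc libraries, so the order of Dsp and Pkp1 is not resolved, and Pkp1 was the higher in P2 mSGc and IMOK replicate 1. Plakoglobin followed at 217 ± 42.5 TPM in mSGc and 165 ± 40.7 in IMOK, and came next in 8 of the libraries, all but P10 in SFM.

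Among the cadherins, which all lie on mouse chromosome 18 (desmocollins on the minus and desmogleins on the plus strand), Dsg3 stood at 181 ± 79.3 TPM in mSGc and 98.6 ± 23.1 in IMOK, Dsc2 at 150 ± 74.0 and 123 ± 26.4, and Dsc3 at 79.8 ± 68.1 and 48.0 ± 9.91. Dsg3 and Dsc2 changed places between libraries of both lines, and in mSGc their means differed by less than their SDs, whereas Dsc2 exceeded Dsc3 in all 9 libraries. Pkp3, found in most epithelia, had 118 ± 20.2 TPM in mSGc and 88.0 ± 12.9 in IMOK. The lowest members were Pkp2, at 33.6 ± 12.1 and 26.1 ± 8.97 TPM, and Dsg2, at 32.0 ± 15.4 and 44.4 ± 3.59 TPM. Even these lay above 70.1% of all gene entries in each library. The remaining desmosomal cadherins (Dsc1, Dsg1a, Dsg1b, Dsg1c and Dsg4, with Dsg1a to Dsg1c near-identical copies whose reads may be split) summed to 0.301 to 4.12 TPM, most of it Dsc1 in the SCM libraries at 3.27 and 2.53 TPM.

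**Figure D1:**
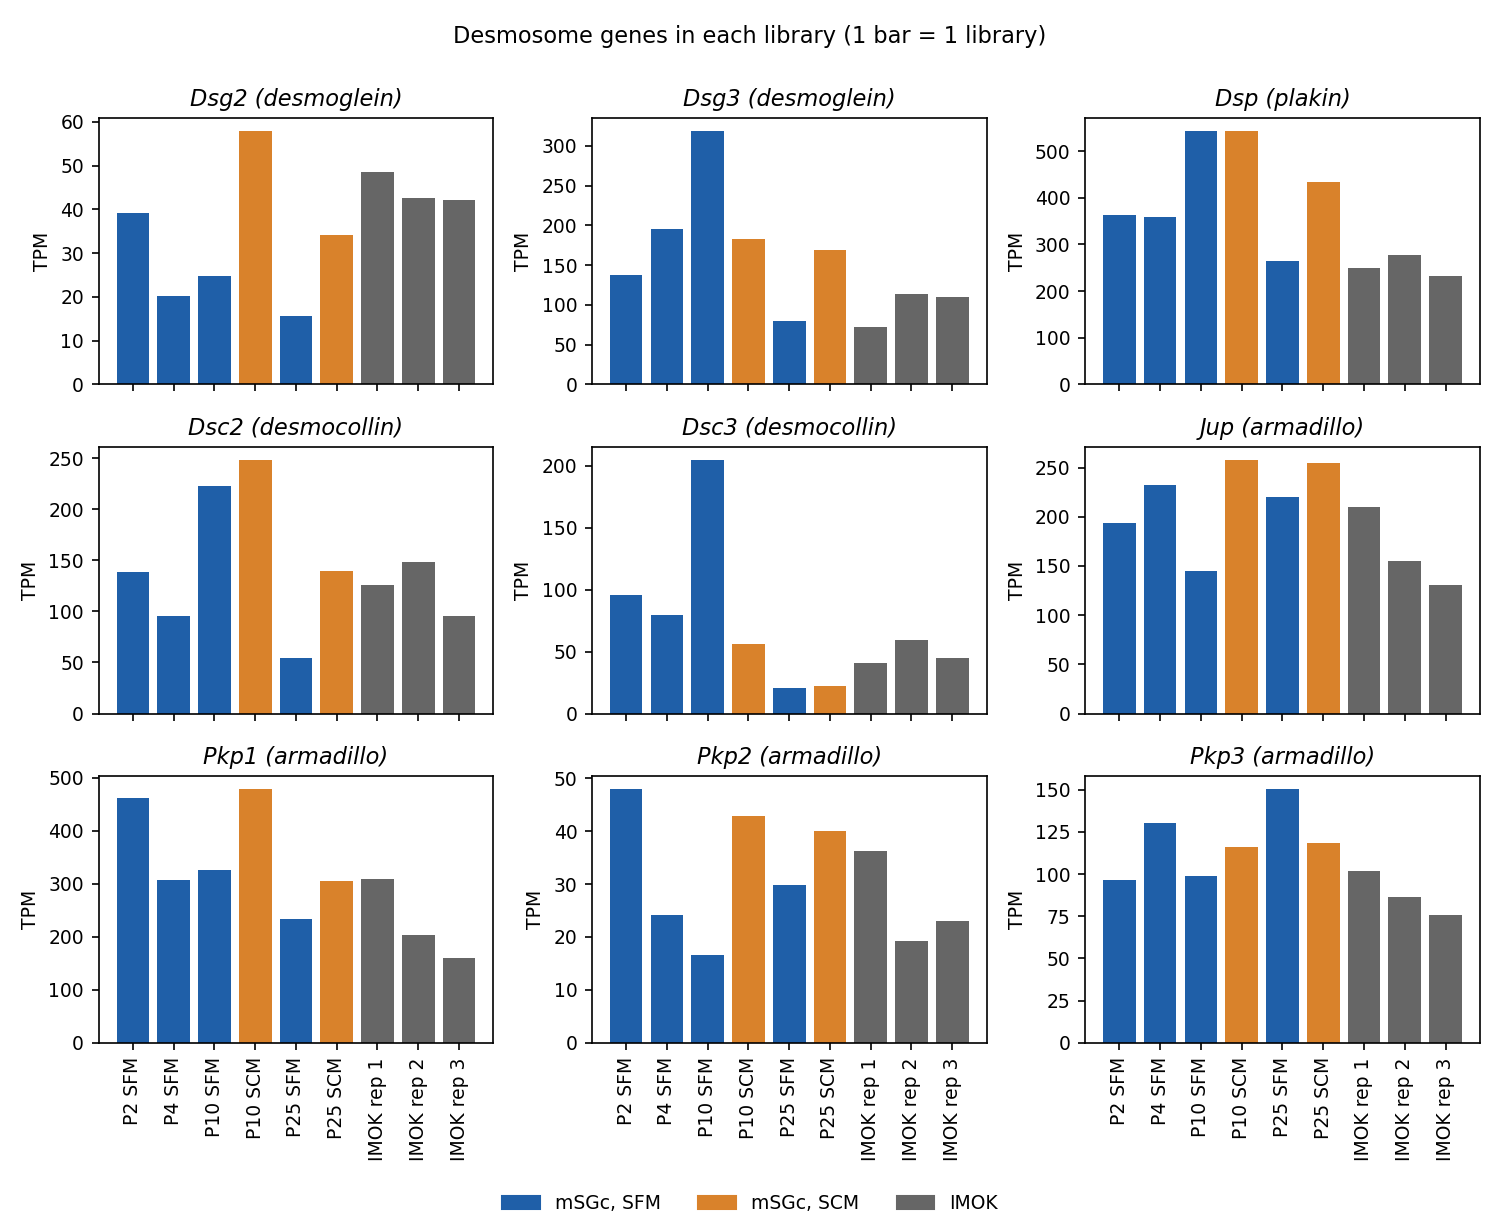
Level of each desmosome gene (TPM, y axis from 0, scale differs between panels) in each of the 9 libraries, 1 bar per library, coloured by SFM, SCM and IMOK. Dsp and Pkp1 are the highest 2 in every library, and Dsc3 runs from 20.8 TPM in P25 SFM to 205 TPM in P10 SFM.

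In mm9, the build of the count tables, Dsp spans 38243163 to 38290446 of chromosome 13 (plus strand, 9592 counted bases) and Jup 100230170 to 100259104 of chromosome 11 (minus strand, 5009 bases). Pkp1 spans 137767972 to 137815601 of chromosome 1 (minus), Pkp2 16213438 to 16272805 of chromosome 16 (plus) and Pkp3 148264128 to 148276409 of chromosome 7 (plus). Among the plaque genes, RefSeq promoter sequences (table build GRCm38.p6) matched Dsp and Jup. Promoters of the cadherins were not examined. The 250 bases before each start site are printed for these 2 because no other plaque gene was matched, irrespective of test results. They are given 5′ to 3′ on the gene's strand, at chr13:38242913-38243162 and chr11:100259105-100259354 in mm9, with GC boxes (GGGCGG on either strand) in capitals.
Dsp: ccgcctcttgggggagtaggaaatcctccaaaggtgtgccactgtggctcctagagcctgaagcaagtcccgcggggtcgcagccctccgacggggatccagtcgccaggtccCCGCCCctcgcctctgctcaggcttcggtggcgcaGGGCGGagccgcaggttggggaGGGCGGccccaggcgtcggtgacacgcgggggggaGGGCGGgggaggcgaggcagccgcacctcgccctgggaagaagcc
Jup: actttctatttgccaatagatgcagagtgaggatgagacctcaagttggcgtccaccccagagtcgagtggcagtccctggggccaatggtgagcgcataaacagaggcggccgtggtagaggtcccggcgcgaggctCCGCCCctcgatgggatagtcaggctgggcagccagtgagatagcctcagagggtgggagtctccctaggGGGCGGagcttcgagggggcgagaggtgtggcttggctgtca
The Dsp window is 72.4% G and C and holds 4 GC boxes, beginning at bases -137, -102, -80 and -45 from the start site. The Jup window is 62% G and C and holds 2, at -112 and -42. A GC box is found in 32.7% of 32851 promoter windows of this length, so its presence is common. Jup also holds 2 CCAAT boxes (CCAAT, either strand, in 33.8% of promoters), beginning at -238 and -167. Neither window holds a TATA box (TATAAA, in 12.4% of promoters), an E-box of the Snail family (CACCTG, in 17.2%) or an AP-1 site (TGANTCA, in 6.75%). These motifs were searched on both strands and were chosen after the sequences were seen.

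The line difference is the first comparison the design implies, with all 6 mSGc libraries against the 3 IMOK libraries. Desmoplakin and Pkp1 were higher in mSGc, 1.90-fold and 1.83-fold, and no desmosome gene was called lower. That is 2 of 9 genes called by edgeR's quasi-likelihood test at an adjusted p of 0.05, where 14.9% of the 12885 genes tested were called. All 9 passed the filter on low counts. Their median log2 fold change was 0.68 against 0.0023 over all genes, 8 of 9 were positive, and 5 of 9 had an unadjusted p under 0.05, as had 30.4% of all genes. Dsp, Pkp1 and Dsg3 also stand in a list of mSGc-enriched genes that the study chose on these libraries, so their direction is not independent evidence.

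Dsp, which anchors keratin to the plaque, had 1666 CPM in P2, 1953 in P4, 2686 in P10 and 1539 in P25 in SFM, and 2463 in P10 and 2172 in P25 in SCM (CPM, counts scaled to TMM library sizes, are used for all values per library from here on). IMOK replicates 1 to 3 had 929, 1227 and 1085 CPM. Every mSGc library was above every IMOK library. The log2 fold change was 0.93 (SE 0.23, 95% interval 0.41 to 1.45, edgeR adjusted p = 0.0261).

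Pkp1, the plakophilin of stratified epithelia that gathers desmoplakin at the plaque, had 989, 782, 757 and 636 CPM over P2, P4, P10 and P25 SFM and 1014 and 714 CPM in P10 and P25 in SCM. IMOK replicates had 539.6, 421 and 348 CPM. The groups again did not overlap, with IMOK replicate 1 nearest to P25 in SFM. The log2 fold change was 0.87 (SE 0.23, 95% interval 0.35 to 1.39, edgeR adjusted p = 0.0340).

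Pkp3 was another member whose 6 mSGc libraries, at 140.3 to 278 CPM, all exceeded IMOK, at 113 to 122 CPM, with a log2 fold change of 0.68 (SE 0.22) and an edgeR adjusted p = 0.0677. So 3 of 9 did not overlap with mSGc higher, where 10.2% of all tested genes did so. In TPM all 9 members overlapped. For Dsp this came from P25 in SFM, which lay at 264 TPM and below the highest IMOK library at 277.

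The other 6 members overlapped between the lines and did not pass the test. Dsg3, a desmoglein of stratified epithelia and target of pemphigus vulgaris antibodies, had the largest fitted difference of the members, 1.06 (SE 0.37, 95% interval 0.23 to 1.89, edgeR adjusted p = 0.0818). Its mSGc libraries held 199.8 to 677 CPM and IMOK 115, 216 and 221, so that only P25 in SFM lay within the IMOK range. Jup, which also binds classical cadherins, had 375 to 669 CPM in mSGc and 319 to 409.6 in IMOK (log2 fold change 0.63, SE 0.23, edgeR adjusted p = 0.0897), with P10 in SFM the low mSGc library. The intervals of Pkp2 (-0.11 to 1.28), Dsc2 (-0.36 to 1.30), Dsc3 (-0.51 to 2.35) and Dsg2 (-0.96 to 0.37) all contained 0, and Dsg2 was the only member with a negative estimate, -0.29.

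**Figure D2:**
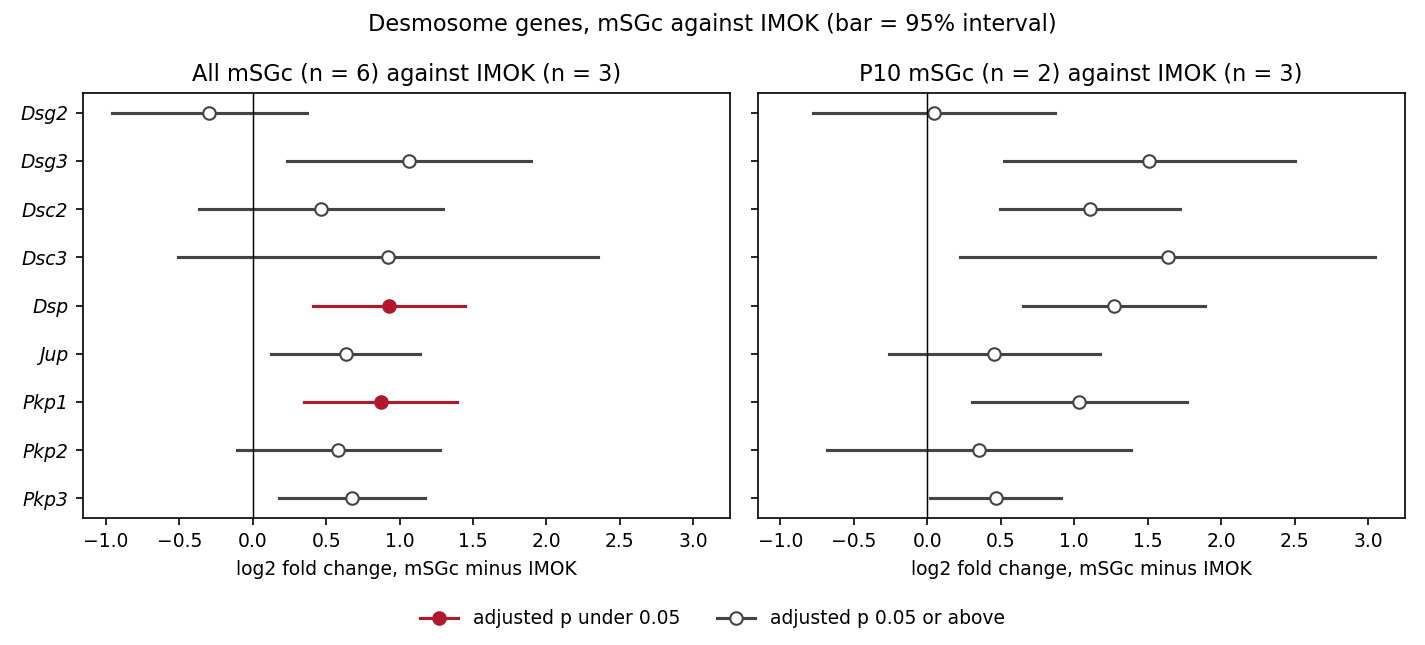
Log2 fold change of each desmosome gene, mSGc minus IMOK, with its 95% interval, for all 6 mSGc libraries (left) and the 2 P10 libraries (right) against the same 3 IMOK libraries. On the left only Dsp and Pkp1 (filled) have an adjusted p under 0.05, and on the right none has.

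Both calls rested on few libraries. The edgeR adjusted p of Dsp was 0.0646, 0.0829 and 0.0963 without IMOK replicate 1, 2 and 3, and 0.0832 with SFM libraries alone. That of Pkp1 was 0.141 and 0.136 without IMOK replicate 2 and 3, 0.0516, 0.0618 and 0.0582 without P2 SFM, P4 SFM and P10 SCM, and 0.0779 on total counts without TMM factors, where the median of all genes moved to -0.10. The estimates stayed positive, between 0.83 and 1.01 for Dsp and 0.71 and 1.10 for Pkp1 over 14 alternatives. Another 3 members came past the threshold in single alternatives: Pkp3 without P2 SFM (adjusted p = 0.0486), Jup without P10 SFM (0.0384) and Dsg3 without P25 SFM (0.0427), all by edgeR. DESeq2 called 5 of the 9, adding these 3, where it called 21.5% of 14178 genes with an adjusted p.

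The study set P10 mSGc against IMOK because, it states, both had the same passage number. The labels give IMOK only an early passage. That comparison shares its 3 control libraries and 2 of its mSGc libraries with the one above, which also holds P2, P4 and P25. No member was called by edgeR, where 4.20% of 13018 genes were, and 6 of 9 had an unadjusted p under 0.05, as had 24.9% of all genes. All 9 estimates were positive, with a median of 1.03 against -0.01 over all genes. Dsp, at 2686 and 2463 CPM, had a log2 fold change of 1.27 (SE 0.25, edgeR adjusted p = 0.0527). Dsc2, at 509 and 518 CPM against 216, 303 and 206 in IMOK, had 1.11 (SE 0.25, adjusted p = 0.0659), and Dsg3 1.51 (SE 0.40, adjusted p = 0.0931). Pkp1 had 1.03 (SE 0.30, adjusted p = 0.106) and Dsc3 1.64 (SE 0.57, adjusted p = 0.157). The Dsc3 value rested on P10 in SFM, as it was 0.29 without that library and 2.32 without P10 in SCM.

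Dsp, Pkp1, Pkp3, Dsc2 and Dsg3 did not overlap with P10 higher, 5 of 9 members where 23.0% of tested genes did so. Dsg2 was near 0 at 0.05 (SE 0.34), and its sign turned under several alternatives. DESeq2 called 5 members in this comparison, where it called 15.9% of 14274 genes, and limma's voom 0, where it called 3.06% of genes. Without IMOK replicate 1, which carried the Acta2 signal, edgeR called 4 members (Dsc2, Dsg3, Dsp and Pkp1) and 3416 of 12602 genes tested. With that replicate included, it called no member and 547 of 13018 genes, so calls rose over all genes too. The part of that replicate's other differences in these counts was not tested.

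Within mSGc the plaque genes were mostly steady and the cadherins variable. The SD of the log2(CPM + 1) level over the 6 libraries was 0.27 for Pkp1, 0.31 for Dsp, 0.35 for Jup and 0.36 for Pkp3, near the median of 0.33 over 9454 tested genes averaging 10 CPM or more. It was 0.52 for Pkp2, 0.55 for Dsg2, 0.60 for Dsg3, 0.69 for Dsc2 and 1.21 for Dsc3, which exceeded 97.1% of those genes. The cadherins thus held the 4 widest spreads of the 9.

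Dsc3, the desmocollin of basal keratinocytes, had 242, 239.8, 561 and 66.9 CPM over P2, P4, P10 and P25 SFM, and 141 and 61.6 CPM in P10 and P25 in SCM. Its highest library, P10 in SFM, was 8.38-fold above P25 in the same medium. Its IMOK libraries, at 83.5, 145 and 115 CPM, lay inside that range. Both P25 libraries were below all the others of the series.

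Dsc2, the widespread desmocollin, had 293, 238, 509 and 146 CPM over the SFM passages, and 518 and 323 CPM in P10 and P25 in SCM. Both P10 libraries were high and P25 in SFM was the low one. Dsg3 followed a like course in SFM, with 270.3, 455, 677 and 199.8 CPM, and had 354 and 363 CPM in SCM. From P10 to P25 in SFM, the difference in log2(CPM + 1) was -3.05 for Dsc3, -1.79 for Dsc2, -1.76 for Dsg3, -0.42 for Dsg2 and -0.80 for Dsp, against 0.83 for Jup, 0.84 for Pkp3 and 1.06 for Pkp2. These are differences between single libraries with no replicate check.

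The other genes of the cadherins' chromosome were also measured in these libraries. Over 241 other chromosome 18 genes averaging 10 CPM or more, the median difference in log2(CPM + 1) from P10 to P25 in SFM was -0.36 (quartiles -0.77 and 0.05), against 0.08 over 9217 genes of other chromosomes. In SCM it was -0.16 against 0.04, and there the cadherins had -1.18 for Dsc3, -0.68 for Dsc2, -0.62 for Dsg2 and 0.04 for Dsg3. The part of the chromosome in the cadherin values was not tested. Dsp, on chromosome 13, had -0.18 in SCM.

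**Figure D3:**
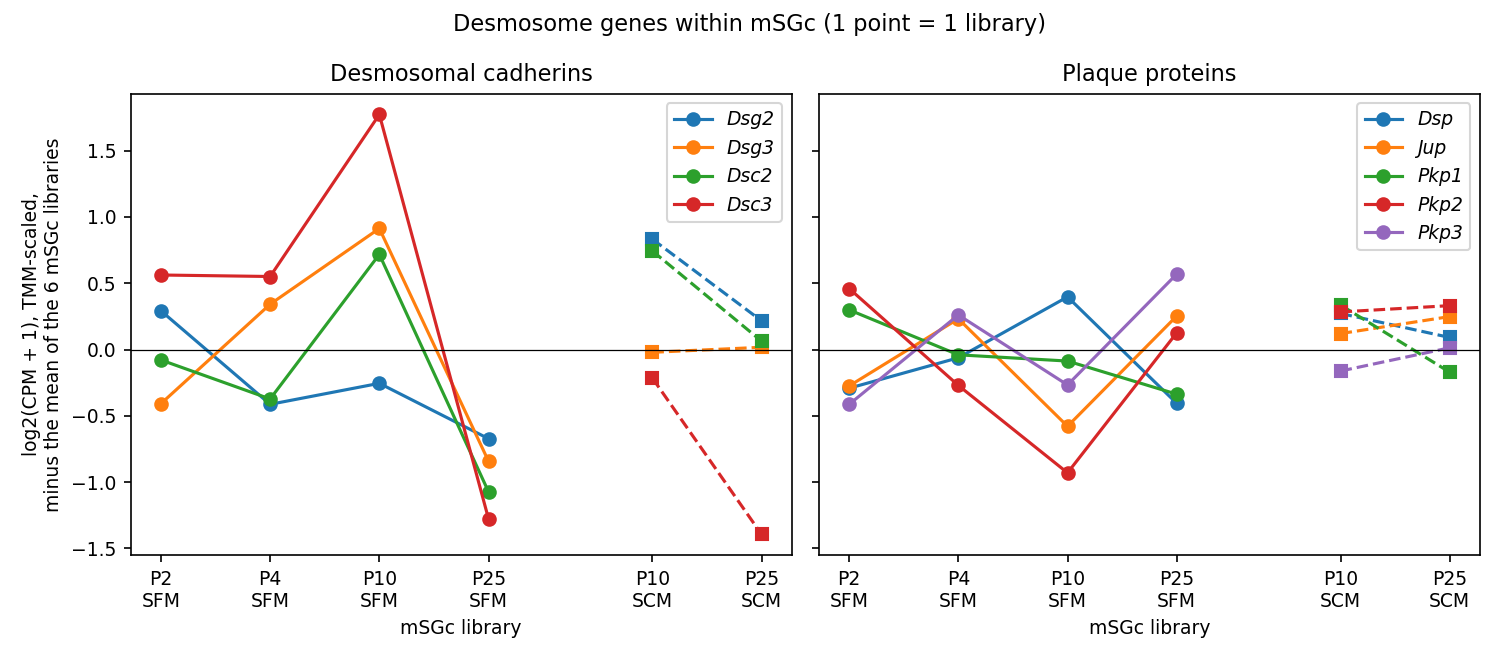
Level of each desmosome gene in the 6 mSGc libraries as log2(CPM + 1) minus that gene's mean over them, cadherins left and plaque genes right, 1 point per library, with solid lines joining SFM and dashed lines joining SCM libraries. Among the SFM libraries Dsc3, Dsg3 and Dsc2 are highest in P10 and lowest in P25, while Jup and Pkp2 are lowest in P10.

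Some plaque genes had their low library where these cadherins had their high one. Pkp2, the plakophilin of heart and simple epithelia, had 66.4, 39.6, 24.7 and 52.4 CPM over P2, P4, P10 and P25 SFM and 58.6 and 60.6 CPM in SCM. P10 in SFM, the highest library for 3 cadherins and Dsp in SFM, was its lowest. Jup had 464, 659, 375 and 669 CPM in SFM and 609.9 and 667 CPM in SCM, and was also lowest in P10 SFM. Pkp3 was lowest in P2, with 140.3, 224, 155 and 278 CPM in SFM and 167 and 189 CPM in SCM.

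The joint fit of medium and log2 passage over the 6 mSGc libraries asked whether these genes changed with passage or with medium. For passage no member was called, where edgeR called 0.490% of 12451 genes. The one unadjusted p under 0.05, a mark that 13.2% of all genes passed, was that of Dsg2 (-0.27 per doubling of passage, SE 0.09, unadjusted p = 0.0230, edgeR adjusted p = 0.279). The largest estimate was that of Dsc3, -0.30 per doubling (95% interval -1.15 to 0.55). Without P10 in SFM, Dsc3 fell by 0.61 per doubling with an edgeR adjusted p = 0.0363, and without P25 in SFM its estimate was 0.24, so 1 library decides its sign and another its call. DESeq2 and limma's voom called none of the 9, where they called 5.58% and 0.602% of genes.

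For medium no member was called either, where edgeR called 0.0241% of genes, all of them higher in SCM. Dsg2, the desmoglein of simple and stratified epithelia, came nearest, as the one member with an unadjusted p under 0.05, which 8.18% of all genes had. It had 108, 65.6, 73.3 and 54.7 CPM over P2, P4, P10 and P25 SFM and 157 and 102 CPM in P10 and P25 in SCM, so SCM was the higher at both matched passages, 2.14-fold at P10 and 1.87-fold at P25. The fitted log2 difference was 1.12 (SE 0.25, 95% interval 0.52 to 1.72, unadjusted p = 0.00306, edgeR adjusted p = 0.218). DESeq2 called it, with an adjusted p = 0.0183, as the only one of the 9, where it called 2.26% of genes, and voom called no gene at all. With P10 and P25 alone and passage as a block, edgeR called 0 members and 123 genes.

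The other cadherins did not share a direction between the media. Dsc3 was 3.98-fold lower in SCM than in SFM at P10 but differed by 1.09-fold at P25 (fitted difference -1.14, SE 0.82, edgeR adjusted p = 0.819). That estimate turned to 0.12 without P10 in SFM and was -2.11 without P25 in SFM, so 1 library decides its direction. Dsc2 was within 1.02-fold at P10 and 1.14 higher on the log2(CPM + 1) scale in SCM at P25. The intervals of the 8 members other than Dsg2 all contained 0, the widest being that of Dsc3, -3.08 to 0.80.

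Markers of squamous differentiation and keratins were read in the same libraries, and edgeR called none of either list for medium. Of the 8 squamous markers 6 were tested, of which 5 had positive estimates and Ivl, the envelope protein involucrin, had -1.25. The 8 summed to 240 TPM in P10 SFM and 940 in P10 SCM, and to 58.6 TPM in P25 SFM and 364 in P25 SCM, with Krt4 at 0.204 and 0.386 TPM in the SFM pair and 88.2 and 94.8 TPM in the SCM pair (edgeR adjusted p = 0.177). Ivl had 3.96 and 19.0 TPM in the SFM pair and 7.56 and 6.79 in the SCM pair. Of 11 keratins 6 had positive estimates. The simple keratin Krt7 had 372 and 97.8 TPM in the SFM pair and 3232 and 2576 in the SCM pair (edgeR adjusted p = 0.117), but also 2074 and 1511 in P2 and P4 SFM. The basal keratin Krt5 had the reverse order, with 9214 and 9386 TPM in the SFM pair and 3910 and 2559 in the SCM pair (edgeR adjusted p = 0.398). In P2 and P4 SFM, however, Krt5 had 3119 and 9234 TPM. The part of these markers and keratins in the Dsg2 difference was not tested.

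Genes of one family that fill the same place in the junction were compared by their ratio within a library, per base of gene length, which needs no scaling between libraries. In the desmogleins, Dsg3 outweighed Dsg2 in all 9 libraries. The ratio was 3.50, 9.67, 12.9 and 5.09 over P2, P4, P10 and P25 SFM, 3.14 and 4.96 in P10 and P25 in SCM, and 1.48, 2.67 and 2.62 in IMOK replicates 1 to 3. All 6 mSGc libraries were above all 3 IMOK libraries, by 1.39 on the log2 scale or 2.62-fold. The two-sided exact permutation p was 0.0238, the smallest this design allows, and 0.190 adjusted over the 8 ratios. With that smallest p, a ratio that separated alone could not pass the adjusted threshold, so the adjusted value decides nothing here. As a share of the desmoglein level, Dsg2 took 7.21% to 24.1% in mSGc and 27.3% to 40.2% in IMOK.

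In the desmocollins, Dsc2 outweighed Dsc3 in all 9 libraries. The Dsc3/Dsc2 ratio was 0.688, 0.837, 0.917 and 0.380 over P2, P4, P10 and P25 SFM, 0.226 and 0.159 in P10 and P25 in SCM, and 0.322 to 0.465 in IMOK. The SCM library had the lower ratio at both passages, and the 2 SCM libraries were the lowest of the 9. Between the lines the ratio differed by 0.17 on the log2 scale, with libraries on both sides (exact permutation p = 0.810, adjusted 0.833).

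In the plakophilins, Pkp1 exceeded Pkp2 by 6.90 to 19.7-fold and Pkp3 by 1.55 to 4.78-fold in every library. Pkp1 made up 56.4% to 76.2% of the plakophilin level in mSGc and 61.6% to 69.1% in IMOK. Jup stood at 0.298 to 0.615 of the level of its relative Ctnnb1 (beta-catenin of the adherens junction) in mSGc and 0.308 to 0.363 in IMOK. None of the ratios other than Dsg3/Dsg2 had an exact permutation p under 0.05 (0.214 to 0.833).

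**Figure D4:**
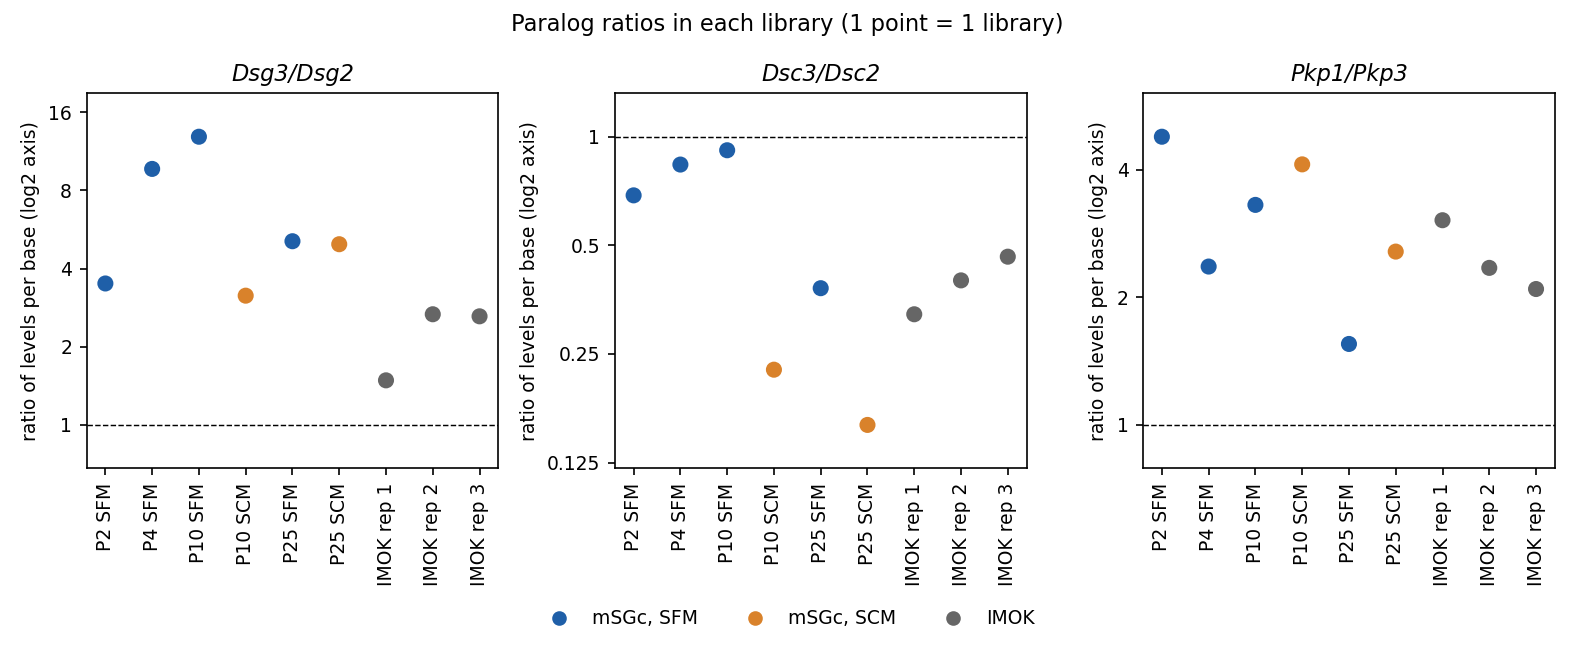
Ratio of 2 paralogs in each library (log2 axis, levels per base of gene length, dashed line at 1), coloured by SFM, SCM and IMOK. Dsg3/Dsg2 is 3.14 to 12.9 in the 6 mSGc libraries and 1.48 to 2.67 in IMOK, while Dsc3/Dsc2 is lowest in the 2 SCM libraries.

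The partners of the desmosome were read from lists of related genes. Of 7 desmosome-associated proteins, 2 were higher in all mSGc against IMOK and none lower, where 14.9% of all genes were called in either direction, and the same share applies to each list that follows. Ppl (periplakin, a plakin of the plaque and cornified envelope) had a log2 fold change of 1.25 (SE 0.31, edgeR adjusted p = 0.0247). Perp, a membrane protein needed for stable desmosomes, had 1.11 (SE 0.27, edgeR adjusted p = 0.0240), and was also called at P10, at 1.57 (SE 0.25, edgeR adjusted p = 0.0385). Its level was 1008 to 2487 TPM in mSGc and 856 to 983 in IMOK, above that of every member. The list's median log2 fold change was 1.11.

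Of 8 adherens junction genes, the classical cadherins Cdh1 (E-cadherin, 1.29, SE 0.27, edgeR adjusted p = 0.0132) and Cdh3 (P-cadherin, 1.13, SE 0.27, edgeR adjusted p = 0.0209) were higher in mSGc. The catenins Ctnna1, Ctnnb1 and Ctnnd1, which link those cadherins to actin or steady them, had 0.12, 0.19 and 0.41 and did not pass. The list's median was 0.30. Of 6 hemidesmosome genes, which fix keratin to the basement membrane side, 1 was called, a share near that of all genes. Itgb4 was higher (0.99, SE 0.29, edgeR adjusted p = 0.0448), with a list median of 0.26. Its levels overlapped, with 190 to 297 TPM in mSGc and 248, 98.7 and 96.7 in IMOK replicates 1 to 3.

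Of 11 keratins, the cargo of the desmosome, 3 were higher in mSGc and none lower, with a median of 1.63. They were the basal keratins Krt15 (4.63, SE 1.06, edgeR adjusted p = 0.0177) and Krt14 (1.27, SE 0.33, edgeR adjusted p = 0.0297) and the wound keratin Krt16 (2.65, SE 0.58, edgeR adjusted p = 0.0151). Krt15 had 43.0 to 547 TPM in mSGc and 2.66 to 19.5 in IMOK, and was the only keratin called at P10, where 4.20% of all genes were (5.73, SE 0.93, edgeR adjusted p = 0.0387). None of the 5 desmosome regulators (Prkca, Egfr, Adam10, Adam17, Src) was called, with estimates from -0.80 for Src to 0.85 for Egfr. Of the further desmosomal cadherins, 1 of 5, Dsc1, passed the filter and was not called (1.91, edgeR adjusted p = 0.135). Passage and medium called no gene of these 6 lists by edgeR. For passage, 4 of 8 adherens junction genes and 4 of 11 keratins had an unadjusted p under 0.05, as had 13.2% of all genes. For medium, 4 of 11 keratins had one, as had 8.18% of all genes. The remaining counts of a list in a fit were at most 2. Other tools and fits with fewer libraries were not read for these lists.

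**Figure D5:**
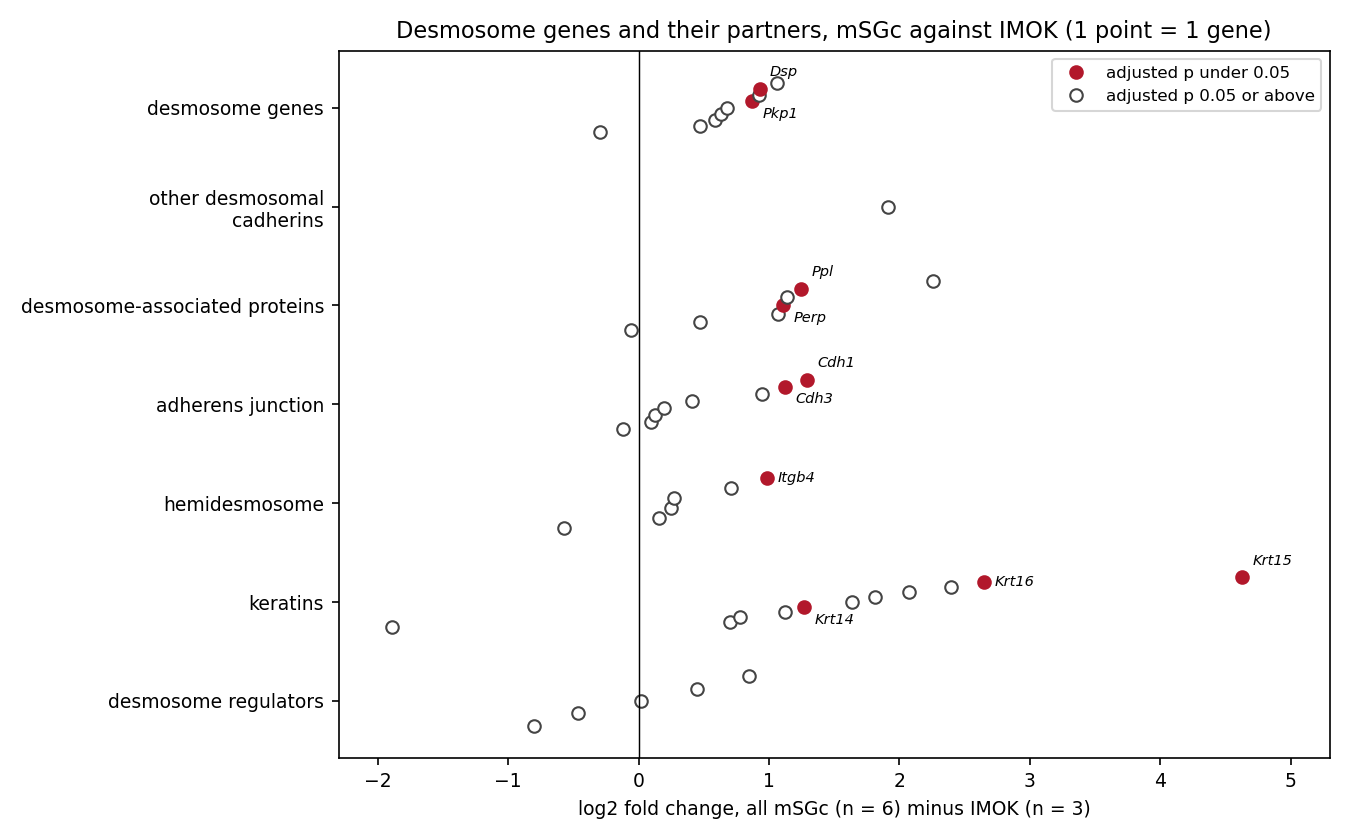
Log2 fold change of all mSGc (n = 6) minus IMOK (n = 3) for the desmosome genes and 6 lists of partners, 1 point per gene tested, with genes of adjusted p under 0.05 filled and named. Dsp lies at 0.93 and Pkp1 at 0.87, and Krt15 at 4.63 is the farthest point.

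By the root mean square difference of centred log2 level over the 9 libraries, among 9461 genes averaging 10 CPM or more, the genes most like Dsp were Zfp53 (0.144), Klhdc5 (0.162), Rnf170 (0.164), Jmy (0.178) and Pik3c3 (0.178). The desmosome gene nearest to Dsp was Dsg3, the 375th, at 0.335, followed by Pkp1, the 491st, at 0.350. Dsc3 was the 7660th, at 0.854.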

How the data were processed

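RNA-seq libraries of mSGc (6) and IMOK (3) were analysed from 2 tables of counts per gene. Per the labels, the authors used TopHat2 2.1.1, Bowtie2 2.2.6 and featureCounts 1.5.1 on mm9 and deposited raw counts, without normalization. Annotation, strandedness and the handling of reads with several positions are not given in the sources used here. Overlapping genes and close copies are therefore uncertain.

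TPM was computed from the deposited counts and gene lengths. edgeR 4.0.16 (R 4.3.3) was run with TMM, filterByExpr and the quasi-likelihood test, with Benjamini-Hochberg adjustment over all genes tested at 0.05. SEs were derived from the F statistic. The fits were all mSGc against IMOK, P10 mSGc against IMOK, and log2 passage with medium within mSGc. Ratios carried an offset of 0.5 counts and a two-sided exact permutation test. The main edgeR fits and the ratio test were tested on simulated data, with the same dispersion for every gene in the simulated counts. The alternatives and the medium by passage interaction were not. Alternatives used DESeq2 1.42.0, limma 3.58.1 (voom), no TMM, no filter, fewer libraries and another passage scale. Figures used matplotlib 3.10.9. Intervals cover the spread between libraries, and 3 counts equal 0.163 to 0.481 CPM.

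The members, partner lists and tests were chosen with earlier results of these data known. Named genes are the 9 members, genes of the partner lists that were called (at most 4 a list and comparison) and the 5 genes most like Dsp. Genes named outside this rule (Acta2, Aqp5, Smr3a, Amy1, Krt4, Krt5, Krt7, Ivl, Sprr1a, further catenins and regulators, Dsc1) were chosen after their values were seen. The medium by passage interaction was added after the data had been seen.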

Additional observations from a re-analysis of the deposited data

Results flagged for a closer look

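The ratio of Pkp2 to Pkp3 over the 4 SFM libraries had P2 apart from the others, at 0.498 against 0.168 to 0.199, with a gap of 0.845 of the range on the log2 scale, beyond the 95% critical value of 0.829 for 4 samples. It was the one such case among 17 groups of values examined, and chance alone gives about 1 in 20. P2 also held the 569 TPM of myoepithelial markers, nearly all Acta2, and the highest sum of mesenchymal markers, 22.2 TPM. The part of these markers in the ratio was not tested.

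Dsg3, Dsp, Jup and Pkp3 had single-library differences between SCM and SFM of opposite sign at the 2 matched passages. For Dsg3 the difference in log2(CPM + 1) was -0.93 at P10 and 0.86 at P25. For Dsp it was -0.13 and 0.50, for Jup 0.70 and -0.0044, and for Pkp3 0.10 and -0.56. From P10 to P25, Dsg3 had -1.76 in SFM and 0.038 in SCM. Each condition is 1 library, so these pairs have no test of their own. A medium by log2 passage interaction over the 6 mSGc libraries, added after the data had been seen, called 0 of 12451 genes by edgeR, with 349 at an unadjusted p under 0.05, and gave every member an adjusted p of 1. It was not run with another tool.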

How the results depend on the processing

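In all mSGc against IMOK, edgeR called 2 members and 1918 genes. DESeq2 called 5 and 3049, total counts without TMM factors left 1 member called, and SFM libraries alone left 0. Without TMM factors the called genes were split 663 higher and 1373 lower, against 848 and 1070. Leaving out 1 library gave 0 to 3 members and 738 to 1918 genes, and the fewest came without IMOK replicate 2 (738 genes) and 3 (943). In P10 against IMOK, edgeR called 0 members and 547 genes. DESeq2 called 5 and 2269, and leaving out 1 library gave 0 to 4 members and 0 to 3416 genes. It left 1 P10 library in 2 of these fits, taken to vary like IMOK.

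For passage, with 0 members and 61 genes called, DESeq2 called 749 genes, no filter 161, untransformed passage 126, SFM libraries alone 3, and leaving out 1 library 0 to 1 members and 0 to 329 genes. For medium, with 0 members and 3 genes, DESeq2 called 1 member and 288 genes, no filter 36 genes, voom 0, P10 and P25 alone with passage as a block 123, and leaving out 1 library 0 to 58 genes. The causes were not tested.

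Some estimates of single members turned sign. Dsg2 at P10 was -0.041 without TMM factors, -0.0065 without the filter and -0.048 with voom. Dsg3 for medium was 0.10 with voom, and Dsp for passage 0.00047 in SFM alone. On leaving out 1 library, values at P10 ran from -0.60 to 0.46 for Dsg2 and -0.39 to 0.81 for Pkp2. Those for passage ran from -0.34 to 0.18 for Dsc2, -0.77 to 0.24 for Dsc3, -0.33 to 0.43 for Dsg3, -0.14 to 0.20 for Dsp, -0.087 to 0.097 for Jup and -0.45 to 0.13 for Pkp2. Those for medium ran from -2.11 to 0.12 for Dsc3, -1.09 to 0.54 for Dsg3, -0.20 to 0.55 for Dsp and -0.026 to 0.53 for Jup. Log2 ratio differences ran from -0.044 to 0.46 for Dsc3/Dsc2, -0.29 to 0.058 for Pkp2/Pkp3 and -0.10 to 0.25 for Dsg3/Dsp, whereas Dsg3/Dsg2 kept 1.11 to 1.56. The remaining alternatives kept direction and side of the threshold for 367 of the values of single members and 73 of the ratio values.

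For mSGc against IMOK, no paired analysis was possible because the IMOK labels alone carry replicate numbers. Between the media, the fit with passage as a block is the paired one, and it called 0 members. Depth limited no member, as the lowest count of any was 220, but 1 library per condition limits every statement on passage and medium.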
